A study of Homo sapiens with 4 samples.

Results

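The mRNAs of 3535 genes were compared between the monosome pool and the free pool of a sucrose gradient, out of 19948 genes in the count table. A gene entered the comparison when it had at least 30 counts summed over all 4 libraries of the gradient and at least 20 in the monosome and free libraries together. The cells were HEK293T, a human embryonic kidney line that carries a viral T antigen, grown in DMEM and given cycloheximide at 100 µg/mL for 10 min in every pool. Lysate was separated on sucrose from 10% to 50% into pools named free, monosome, light polysome and heavy polysome, with 1 library of capped, polyadenylated RNA read directly on nanopores for each. No pool had a replicate, so nothing here could be tested against replicates and no p-value is given.

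Cycloheximide stops elongating ribosomes on their mRNAs. The top of a gradient then holds mRNA bound by proteins but by no ribosome, and the monosome peak holds mRNA under a single ribosome, which may have just started or may fill a very short reading frame. TOP mRNAs begin with a cytosine at the cap followed by a run of pyrimidines, encode ribosomal proteins and a number of translation factors, and are known to leave or enter polysomes as a class when mTOR signalling changes, with LARP1 as a protein that binds this start. Ferritin mRNAs carry another well-known switch, the iron-responsive element, a stem-loop near the cap that keeps them from starting translation when iron regulatory proteins are bound.

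The free library was shallow, with 355509 counts, against 1329334 for monosomes, 1499401 for light polysomes and 1564531 for heavy polysomes. The compared genes had a median of 5 free counts and 48 monosome counts, and 289 of them had no free count. They held 98.8% of the free counts and 96.8% of the monosome counts. All 10 HEK293T marker genes listed were detected in at least 1 library, with 1734 counts over the libraries, of which VIM had 850. In the free library only VIM (13 counts), KRT18 (7) and NEFL (1) had any. The summed level of the 10 was 59.1 CPM (counts relative to the total of their library) for free RNA, 141 for monosomes, 160 for light polysomes and 822 for heavy polysomes. Of the markers of other tissues, 2 of 5 blood genes (8 counts), 1 of 3 liver genes (3 counts), 2 of 4 fibroblast genes (3 counts) and 1 of 3 muscle genes (1 count) had any count. The 4 counts of the blood gene HBB all lay in the free library. All levels are relative to a library's total, and no source used here gives the RNA mass of the pools. More RNA of 1 gene and less RNA of the others cannot be told apart in such shares.

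The sequence at the cap is shown for some TOP mRNAs, because mRNAs with the same kind of start lay on opposite sides of the median gene. Each line runs 5′ to 3′ from 10 bases before the annotated start to 20 bases into the transcript, read from RefSeq on GRCh38.p14, and capitals mark the unbroken pyrimidine run that begins with the first transcribed base. The first 4 had a larger part of the free library than of the monosome library, and the other 5 a larger part of the monosome library.
RPLP1: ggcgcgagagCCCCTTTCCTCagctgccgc
TPT1: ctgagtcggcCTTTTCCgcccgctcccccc
RPL12: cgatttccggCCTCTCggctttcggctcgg
RPS18: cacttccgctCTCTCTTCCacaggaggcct
RPS3A: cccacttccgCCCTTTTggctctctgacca
RPL41: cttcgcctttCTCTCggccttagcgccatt
EEF1A1: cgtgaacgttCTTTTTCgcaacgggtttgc
EEF2: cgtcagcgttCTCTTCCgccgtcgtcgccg
EIF4B: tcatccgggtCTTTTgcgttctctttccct
These stretches lie at chr15:69452808-69452837 (RPLP1, plus strand), chr13:45341164-45341193 (TPT1, minus strand), chr9:127451387-127451416 (RPL12, minus strand), chr6:33272065-33272094 (RPS18, plus strand), chr4:151099618-151099647 (RPS3A, plus strand), chr12:56116623-56116652 (RPL41, plus strand), chr6:73521013-73521042 (EEF1A1, minus strand), chr19:3985444-3985473 (EEF2, minus strand) and chr12:53006446-53006475 (EIF4B, plus strand). The run was 11 pyrimidines long in RPLP1, 9 in RPS18, 7 in TPT1, RPS3A, EEF1A1 and EEF2, 6 in RPL12 and 5 in RPL41 and EIF4B. Run lengths of 7 stood on both sides of the comparison.

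FTL, the ferritin light chain, is shown by the loop of its iron-responsive element, with capitals on the CAGTG motif of that loop and the base after it.
FTL: ctcttgcttcaaCAGTGTttggac
This stretch lies at chr19:48965335-48965358 on the plus strand, and its motif begins at base 39 of the transcript. The letters CAGTG, searched on the transcribed strand in the first 50 bases of the transcript, stood in 6.43% of all 27305 starts of the table, in 4.73% of the 2897 compared genes that had an entry, in 5.05% of those called higher in the monosome library and in 6.56% of those called lower, by the rule given next.

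The median gene had a 2.76-fold larger share of the monosome library than of the free library (log2 1.47), and 3261 of the 3535 genes had a larger share there. Values below are therefore log2 ratios of shares, monosome over free, relative to that median gene, with 0.5 added to each count. Intervals in brackets are 95% exact binomial (Clopper-Pearson) intervals and cover counting error only. A gene is called higher or lower when it lies at least 2-fold from the median gene and its interval lies on the same side, which is a rule of size and not a test. By this rule 266 genes (7.52%) were higher in the monosome library and 395 (11.2%) were lower. The quartiles of all genes were -0.74 and 0.78, and the lowest and highest decile began at -1.33 and 1.99. Of the 1105 genes with 100 or more counts in the pair, 171 (15.5%) were higher and 200 (18.1%) lower. A gene without a free count needed at least 40 monosome counts for a call, a number that 1358 genes of the comparison did not reach in both libraries together.

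At the edge of the count minimum, the 122 genes with 20 counts in the pair had a median of -0.08 and 29 of them had no free count, and the 127 genes with 19 counts, which were not compared, had a median of 0.26 with 32 lacking a free count. In all, 3992 genes reached 30 counts over the 4 libraries but not 20 in the pair. Their median was -0.43, and 2059 of them had no free count.

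**Figure D1:**
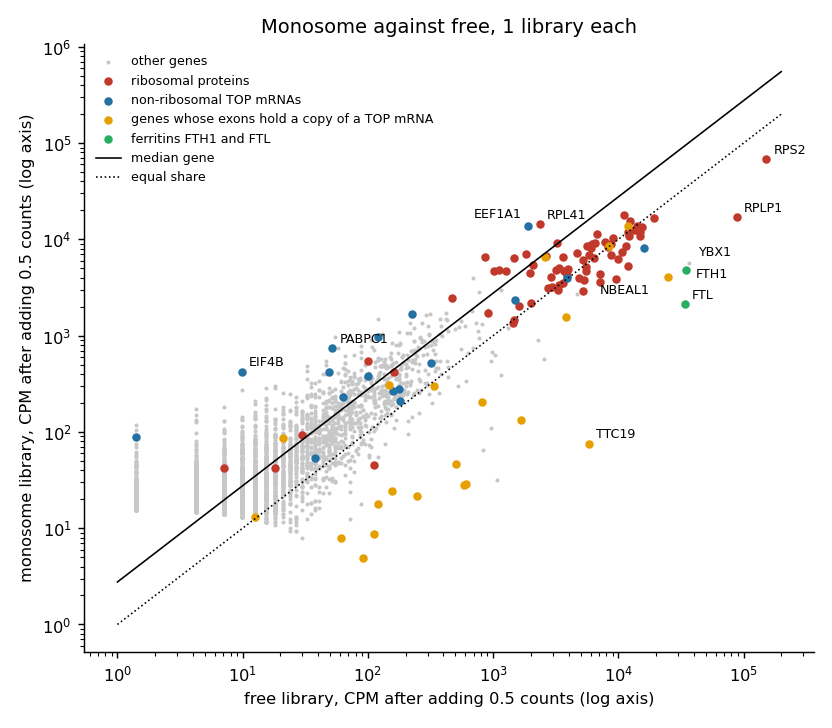
Each point is 1 of the 3535 genes, with its free CPM on the horizontal log axis and its monosome CPM on the vertical log axis, after adding 0.5 counts. Ribosomal protein genes (red) lie mostly below the line of the median gene, RPS2, RPLP1 and the ferritins (green) lie below equal share, and EEF1A1, PABPC1 and EIF4B (blue) lie above the median gene.

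Ribosomal protein mRNAs lay below the median gene, 63 of 75 compared, with a median of -1.27. Of these genes 47 (62.7%) were called lower and 2 (2.67%) higher, beside 18.1% lower and 15.5% higher among all genes with 100 or more counts, a number that 72 of the 75 reached. The direction is relative to the median gene: the share of a typical ribosomal protein mRNA was itself 1.15-fold larger in the monosome library (log2 0.20), and 28 of the 75 had a smaller share there. Summed over all 80 listed genes, however, the share was smaller there, 55.0% of the monosome counts against 65.4% of the free counts. The 30 small-subunit genes lay at -1.30 (19 lower, 1 higher) and the 45 large-subunit genes at -1.24 (28 lower, 1 higher). RPL17, RPL36A, RPS10 and RPS4Y1 had at most 4 counts over all libraries and were not compared.

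RPS2, a protein at the mRNA entry side of the small subunit, was the most counted gene of both pools. It had 53794 free, 90217 monosome, 30541 light polysome and 7910 heavy polysome counts, which are 151315 CPM of the free and 67866 CPM of the monosome library. Its relative ratio was -2.62 (-2.64 to -2.61). The monosome library held its highest count and the free library its highest share. RPS18, with 6903, 22221, 11993 and 6963 counts in the same order, lay at -1.68, and RPS6, the target of the S6 kinases, had 2012, 11250, 5193 and 7502 counts and lay at -0.89 (-0.95 to -0.82). FAU, which codes for RPS30 fused to a ubiquitin-like protein, was the lowest small-subunit member at -2.75 (-3.35 to -2.13), with 39 free and 60 monosome counts.

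The ribosomal stalk, the arm of the large subunit that recruits translation factors, held the lowest value of all ribosomal proteins. RPLP1 had 31331, 22540, 8067 and 2982 counts from free to heavy polysome, falling in share at every step, and lay at -3.84 (-3.87 to -3.82). Its partner RPLP2, with 2533, 4775, 5368 and 5163 counts, lay at -2.45 (-2.52 to -2.38). RPL12, at the stalk base, had 3384, 5124, 6221 and 2317 counts and lay at -2.77 (-2.83 to -2.71). RPLP0, the protein that anchors the stalk, had 5008, 18504, 13033 and 5232 counts and lay at -1.48 (-1.53 to -1.44). The 4 stalk mRNAs were all called lower, as were 62.7% of all compared ribosomal protein mRNAs, whose median was -1.27. RPLP1 and RPLP0 did not overlap in their intervals, which cover counting error only and are narrow at such counts. RPL32, elsewhere in the large subunit, lay at -2.67.

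A minority of ribosomal protein mRNAs went the other way, 12 of 75. RPS3A had 305 free, 8756 monosome, 5034 light polysome and 5797 heavy polysome counts, and lay at 1.47 (1.31 to 1.64). RPL41, the smallest ribosomal protein, had 838, 19019, 5665 and 459 counts and lay at 1.13 (1.04 to 1.24). The monosome library was the highest for both by share, and RPL41 had its lowest share in the heavy polysome library while RPS3A had it in the free library. RPL3, with 167, 3293, 4482 and 6101 counts, lay at 0.93 (0.71 to 1.17), and RPL21 at 0.97, RPL9 at 0.72, RPL4 at 0.66, RPL7 at 0.65 and RPL13A at 0.44 (0.30 to 0.58) followed without a call. RPL26 lay at 1.10 on 2 free and 55 monosome counts, which is too few for a call.

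Non-ribosomal TOP mRNAs lay on both sides, 9 of 17 above the median gene and a median of 0.41. Of these genes 7 (41.2%) were higher and 3 (17.6%) lower, beside 15.5% and 18.1% of all genes with 100 or more counts, which 16 of the 17 reached. The most abundant, EEF1A1, which carries aminoacyl-tRNA to the ribosome, had 676, 18499, 9575 and 12347 counts from free to heavy polysome and lay at 1.40 (1.29 to 1.52). EEF2, the translocation factor, had 42, 1293, 2208 and 1806 counts and lay at 1.56 (1.13 to 2.05). Both had their lowest share in the free library. Of the subunits of the exchange factor that recharges EEF1A1, EEF1B2 lay at -0.84 and EEF1D at -1.27 (-1.66 to -0.84), the latter called lower.

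The poly(A)-binding protein mRNAs and EIF4B stood highest in this group. PABPC1 had 18, 983, 282 and 537 counts, or 50.6 CPM free and 739 CPM monosome, and lay at 2.36 (1.73 to 3.16). EIF4B, a cofactor of the helicase that unwinds mRNA leaders, had 3, 561, 369 and 362 counts and lay at 3.96 (2.62 to 6.46), with the highest lower bound of all genes with 100 or more counts. PABPC4 had no free count and 116 monosome counts, so its share was at least 10.3-fold higher against a floor of 3 free counts, where the median gene was 2.76-fold higher. The median gene had 10.3 monosome counts for each free count.

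TPT1, the translationally controlled tumour protein, was the lowest of the group. It had 5710 free, 10827 monosome, 1282 light polysome and 2222 heavy polysome counts, and lay at -2.45 (-2.49 to -2.40). RACK1, a scaffold on the small subunit, had 1372, 5303, 2533 and 8742 counts and lay at -1.42 (-1.50 to -1.33). RACK1 had its highest share in the heavy polysome library and TPT1 in the free library, so both lower calls came with different profiles. HNRNPA1 lay at 1.41 on 80 free and 2206 monosome counts, with near-identical copies such as HNRNPA1L2, counted at 95 and 1785, that make its reads uncertain. Since TPT1 alone held most of the group's free counts, the log2 ratio of the summed counts was -0.99, the opposite sign of the median.

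Among all compared genes with a start in the promoter table, a C at the first base followed by 4 or more pyrimidines stood in 246 of 2897 (8.49%), against 1104 of 27305 starts (4.04%) in the whole table. It stood in 41 of 60 ribosomal protein genes, in 21 of 218 genes called higher (9.63%) and in 48 of 305 called lower (15.7%). Of the lower genes that are not ribosomal proteins, 21 of 269 had it (7.81%). Ribosomal protein genes with such a start had a median of -1.34 and those without it of -0.94. The 205 other genes with such a start had a median of -0.04 and those without it of 0.04. LARP1 itself had 1 free and 30 monosome counts and gave 0.98 (-1.05 to 6.89), which is not resolved at this depth. The 14 compared genes of the LARP family and mTOR signalling had a median of 0.43, with 2 higher, AKT1 and AKT2, and none lower by the size rule. These 2 were 14.3% of the list, beside 7.52% of all compared genes. AKT1 and AKT2 had no free count and 42 and 41 monosome counts.

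**Figure D2:**
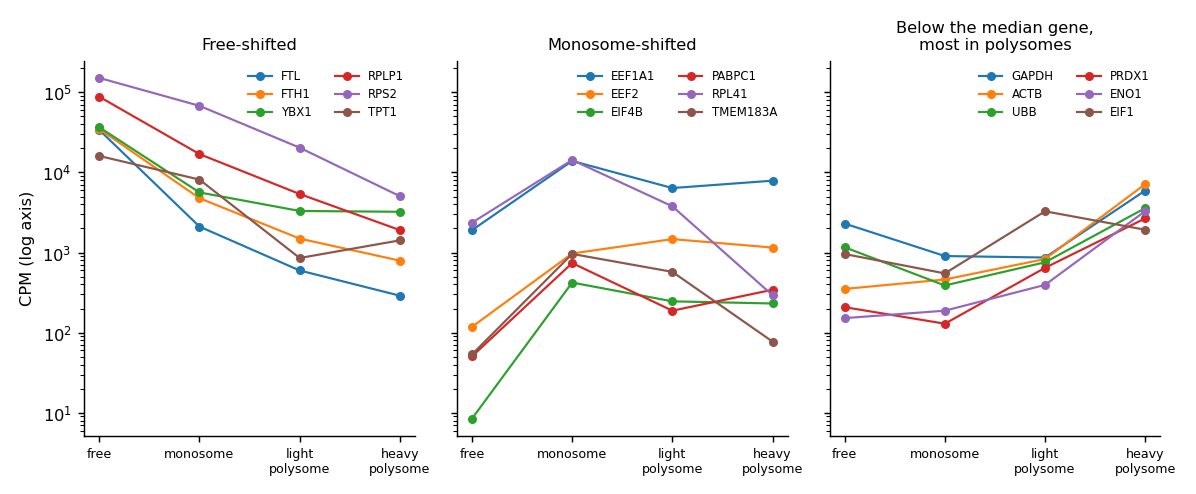
Each line is 1 gene's CPM (log axis) in the 4 libraries from free to heavy polysome, 1 library each. FTL, FTH1, YBX1, RPLP1, RPS2 and TPT1 are highest in the free library; EEF1A1, PABPC1, EIF4B, RPL41 and TMEM183A peak in the monosome library and EEF2 in the light polysome library; GAPDH, ACTB, UBB, PRDX1 and ENO1 are highest in the heavy polysome library and EIF1 in the light polysome library.

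Both ferritin mRNAs lay far below the median gene. FTL (chr19:48965301-48966878, plus strand) had 12074 free, 2805 monosome, 896 light polysome and 453 heavy polysome counts, or 33963, 2110, 598 and 290 CPM, and lay at -5.47 (-5.53 to -5.42). FTH1, the ferritin heavy chain with the ferroxidase site (chr11:61959718-61967660, minus strand), had 12416, 6343, 2240 and 1240 counts and lay at -4.34 (-4.38 to -4.29). The intervals of the light and heavy chain did not overlap. Most other listed mRNAs with such an element had too few counts to be compared, 3 of 9 entering.

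YBX1, the core packaging protein of untranslated mRNA, had 13017, 7484, 4956 and 5050 counts and lay at -4.17 (-4.21 to -4.13). YBX3, its relative, had 274 free and 1251 monosome counts and lay at -1.18 (-1.37 to -0.98). The poly(C)-binding proteins PCBP1 (74, 125, 167 and 1095 counts) and PCBP2 (57, 144, 316 and 1582 counts) lay at -2.62 and -2.04. All 4 were called lower, but the PCBP mRNAs had their highest share in the heavy polysome library and YBX1 in the free library. The 15 compared mRNAs of mRNP proteins had a median of -0.07, near the median gene, with 4 lower (26.7%, beside 11.2% of all compared genes) and 1 higher (6.67%, beside 7.52%), and -3.75 for their summed counts, of which YBX1 held most.

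The genes furthest toward the monosome library by the near bound of their interval were EIF4B, TMEM183A, ATG4D, CNOT7, AIDA, DEXI, NUS1, RBX1, PABPC1, RNF11, ECI2, POLD2, NT5C3B, KHSRP and PABPC4. TMEM183A had 19 free, 1278 monosome, 861 light polysome and 121 heavy polysome counts, and lay at 2.67 (2.05 to 3.44). RBX1, the RING subunit of cullin ubiquitin ligases, had 42, 1964, 988 and 163 counts and lay at 2.16 (1.74 to 2.66). CNOT7, a catalytic deadenylase of the CCR4-NOT complex, had 3, 362, 267 and 56 counts and lay at 3.33 (1.99 to 5.83). For these 3 genes the monosome library had the highest share and the heavy polysome library held less than the light one.

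ATG4D, a protease that processes the ubiquitin-like ATG8 proteins of autophagy, had no free count and 156, 284 and 63 in the other libraries, a share at least 13.9-fold higher in the monosome library. DEXI, also without a free count, had 138, 207 and 40 counts and a share at least 12.3-fold higher. POLD2, a subunit of DNA polymerase delta, had 11, 642, 1230 and 348 counts and lay at 2.43 (1.65 to 3.51). NT5C3B, a nucleotidase, lay at 2.24 (1.64 to 2.99) and ECI2, an enoyl-CoA isomerase of fatty acid oxidation, at 2.76 (1.66 to 4.52). AIDA had 1 free and 228 monosome counts, NUS1, of dolichol synthesis, 1 and 198, RNF11, a RING ubiquitin ligase, 2 and 243, and KHSRP, which promotes decay of AU-rich mRNAs, 1 and 176. KHSRP differed from the other 3 in rising further in share to the heavy polysome library, with 511 counts there.

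Of the 266 genes called higher, 69 (25.9%) reached their highest CPM in monosomes, 151 (56.8%) in light polysomes and 46 (17.3%) in heavy polysomes. Among all compared genes these shares were 13.9%, 37.7% and 45.8%. Of the 395 called lower, 84 (21.3%) reached their highest CPM in free RNA, beside 2.49% of all compared genes. Another 190 (48.1%) did so in heavy polysomes, near the 45.8% of all. The free and monosome counts also made the calls. By the rule itself, no gene called higher could have its highest CPM in free RNA.

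**Figure D3:**
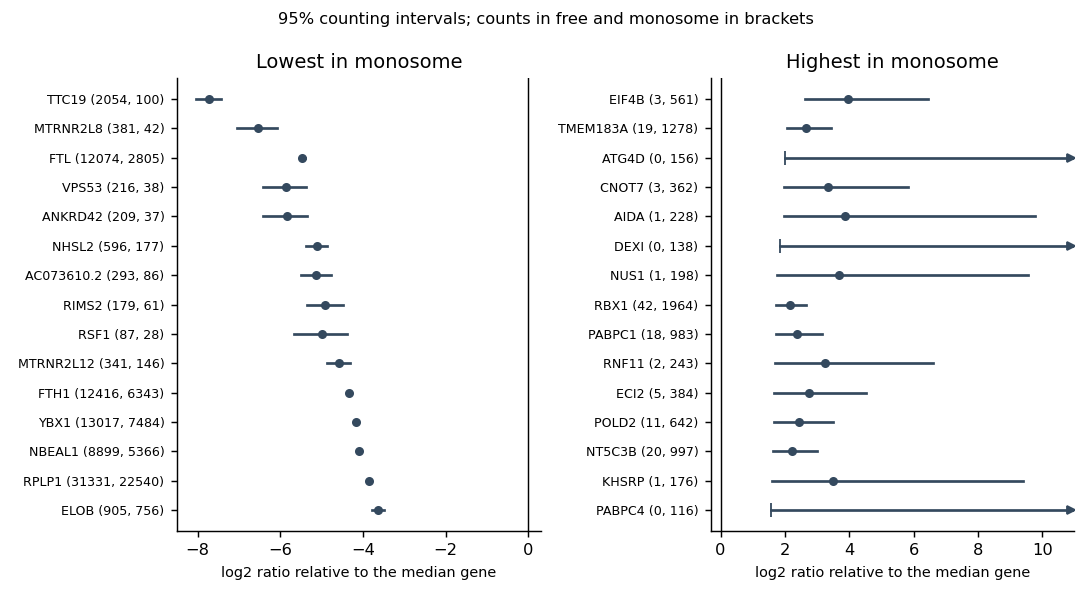
Relative log2 ratios, monosome over free, of the 15 lowest and 15 highest genes with 100 or more counts in the pair, with 95% counting intervals as lines, points for the ratio and the free and monosome counts in brackets. Arrows mark ATG4D, DEXI and PABPC4, which had no free count and so no upper bound; TTC19 is lowest at -7.72.

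Initiation factor mRNAs outside the TOP class lay around the median gene, 15 of 28 above it with a median of 0.14. Of the 28, 4 were higher (14.3%) and 3 lower (10.7%), beside 7.52% and 11.2% of all compared genes. EIF3L, a subunit of the scaffold factor eIF3, had 23 free and 692 monosome counts and lay at 1.51 (0.94 to 2.21). EIF2S3, the subunit of eIF2 that binds GTP and initiator tRNA, had 5 and 251 counts and an interval of 1.04 to 3.92, and EIF4G2 and EIF3D were also higher. EIF1, which guards start codon choice, had 341, 730, 4911 and 3014 counts and lay at -2.27 (-2.46 to -2.08), with its relative EIF1B at -1.67 and EIF5A at -1.20. EIF1 had a smaller share in the monosome library than in either neighbouring pool.

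Of the 10 compared genes of the CCR4-NOT deadenylase and of poly(A) binding, 9 lay above the median gene, with a median of 0.74, or 0.50 with the gene lacking a free count at its bound. CNOT7 and the nuclear poly(A)-binding protein PABPN1 (1 free and 60 monosome counts, 1.96) were higher. These were 2 of 10 (20%), beside 7.52% of all compared genes. No member was lower, beside 11.2% of all compared genes. Only 2 of the 10 had 100 or more counts in the pair.

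Stress mRNAs with upstream open reading frames lay above the median gene in 9 of 12 cases, with a median of 0.52, or 0.13 with the 3 genes without a free count at their bound. ATF4, whose upstream frames hold back its translation outside stress, had 272 free, 3745 monosome, 4895 light polysome and 670 heavy polysome counts, and lay at 0.41 (0.24 to 0.60), under 2-fold. UCP2, a mitochondrial carrier, had 4, 214, 948 and 231 counts and lay at 2.21 (0.99 to 4.26). SLC35A4, whose upstream frame is itself translated, had 1, 85, 614 and 140 counts and lay at 2.46 (0.52 to 8.36). UCP2, SLC35A4 and ATF4 all had their highest share in the light polysome library. ATF5, with 15 free and 63 monosome counts, was the member called lower, at -1.33. The 2 higher were 16.7% of the list and the 1 lower 8.33%, beside 7.52% and 11.2% of all compared genes.

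In polyamine synthesis 7 of 8 genes lay above the median gene, with a median of 0.58. The 2 called higher were 25% of the list, beside 7.52% of all compared genes, and none was lower. ODC1, the rate-limiting enzyme, had 37, 1195, 1865 and 999 counts and lay at 1.63 (1.17 to 2.16), and OAZ2, an antizyme made by frameshifting, had 7 free and 222 monosome counts and lay at 1.52. AMD1, whose upstream frame senses polyamines, had 1 and 45 counts and gave 1.55 (-0.43 to 7.46), which this depth does not resolve. Of the selenoproteins 7 of 11 lay above the median gene (median 0.16): SELENOF was higher at 1.26 (0.77 to 1.85), GPX4, the lipid peroxidase, lay at 0.90 without a call, and SELENOK was lower at -2.58 on 42 free and 73 monosome counts. The higher and the lower call were each 9.09% of that list, beside 7.52% and 11.2% of all compared genes.

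Solute carriers, membrane transporters of a large family, lay above the median gene in 37 of 49 compared cases of 368 listed, with a median of 0.73, or 0.71 with genes lacking a free count at their bound. Only 5 were higher by the rule (10.2%, beside 7.52% of all genes) and 1 was lower, SLC25A5, an adenine nucleotide carrier of mitochondria with 54 free and 280 monosome counts, at -1.01. Most members were shallow: 13 had 100 or more counts, and these had a median of 0.39 relative to the median of all 3535 genes.

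Many abundant housekeeping mRNAs were below the median gene here while their highest share lay in the polysomes. GAPDH, of glycolysis, had 818 free, 1203 monosome, 1300 light polysome and 9306 heavy polysome counts, and lay at -2.81 (-2.94 to -2.68). Its CPM was 2301 free, 905 monosome and 5948 heavy polysome, so the monosome library held less of it than either end. Polyubiquitin UBB, with 414, 516, 1134 and 5619 counts, lay at -3.05 (-3.24 to -2.86), and PRDX1, a peroxidase of the cytosol, with 74, 172, 967 and 4181 counts, at -2.16 (-2.55 to -1.74). These mRNAs, with EIF1, shared a larger CPM in the free than in the monosome library and a larger one again in polysomes. ACTB (125, 613, 1245 and 11187 counts) lay at -1.08 (-1.35 to -0.79) and ENO1 (54, 250, 592 and 5163 counts) at -1.17 (-1.59 to -0.71), and both had a somewhat larger share in the monosome than in the free library.

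The lists that hold GAPDH, UBB, ACTB and PRDX1 had medians below the median gene, while the initiation factor list of EIF1 did not (0.14). Of 8 glycolytic enzymes 7 lay below the median gene (median -1.10) and 4 were lower: GAPDH, LDHA, ENO1 and PKM. Of 27 ubiquitin precursors and E2 enzymes 24 lay below it (median -0.68) and 9 were lower, UBB and UBE2S among them. Of 19 actins, tubulins and small binding proteins 15 lay below it (median -0.88), with 7 lower, such as TUBA1A, TUBB4B and the actin monomer binder PFN1 (-1.16), and 1 higher, PFN2, on 1 free and 62 monosome counts. Of 14 peroxiredoxins, thioredoxins and superoxide dismutases 12 lay below it (median -0.30) and the 3 lower were PRDX1, PRDX2 and PRDX6. The shares called lower, from 50.0% of glycolytic enzymes to 21.4% of the peroxiredoxin list, stand beside 11.2% of all compared genes and 18.1% of those with 100 or more counts, and the peroxiredoxin share is near the latter.

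Proteasome subunits had a median of -0.42, with 6 of 25 lower (24.0%, beside 11.2% of all compared genes), all of the core particle's alpha and beta rings (PSMA7, PSMA4, PSMB3, PSMA5, PSMB1 and PSMB4), and 1 higher, the ATPase PSMC5, at 1.72 on 3 free and 119 monosome counts. Endoplasmic reticulum chaperones had a median of -0.54, with MANF, CALR (-1.45) and PPIB lower of 13 and none higher by the rule. Heat shock chaperones had a median of -0.36 with 3 of 18 lower (TRAP1, HSPA4 and HSPE1), and the chaperonin and prefoldin subunits of -0.19 with 2 of 14 lower, both prefoldins, PFDN5 and PFDN6. Small GTPases of the RAB, ARF and ARL families had a median of -0.52, with 6 of 27 lower, ARF1 among them at -1.32, and 2 higher, ARL2BP, which binds ARL2, and RAB22A. The lower calls were 23.1% of the endoplasmic reticulum list, 16.7% of the heat shock list, 14.3% of the chaperonin and prefoldin list and 22.2% of the small GTPases, to be read against the same 11.2%.

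The lists of mitochondrial proteins encoded in the nucleus were mixed. Mitochondrial ribosomal proteins lay below the median gene in 57 of 69 cases (median -0.42), with 13 lower (18.8%, beside 11.2% of all compared genes) and 1 higher, MRPS7. Respiratory complexes III and IV and ATP synthase had a median of -0.31 with 8 of 30 lower (26.7%) and none higher by the rule. The lower ones included ATP5PD, COX5A, COX4I1 and ATP5MC2 (-1.64). Exons of ATP5MC2 hold part of a copy of RPL31, so its reads are uncertain. Complex I lay at 0.13, with 4 of 30 lower (13.3%) and NDUFC1 higher, at 1.94 (1.27 to 2.80) on 16, 652, 452 and 91 counts. The import list, whose proteins bring the others into the organelle or fold there, had 5 of 26 higher (19.2%, beside 7.52% of all compared genes) and none lower: TOMM22, a receptor of the outer membrane (63, 1451, 1755 and 260 counts, 1.15, 0.79 to 1.54), TIMM17A, TIMM17B, TIMM50 and CHCHD7, although 14 of 26 lay below the median gene and its median was -0.14. Tricarboxylic acid cycle enzymes had no call in 11 genes and a median of 0.14, which turned to -0.03 with 2 genes lacking a free count at their bound.

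Other lists had medians from -0.48 to 0.21, with few calls in number. These calls are to be read against 7.52% higher and 11.2% lower among all compared genes. Splicing proteins of the hnRNP, SR and SF3 families had a median of -0.14, or 0.30 for summed counts, with 2 of 36 higher and 1 lower, SRSF3. Sm and LSm proteins had -0.07 with 3 of 19 lower, and within them SNRPD2 lay at -1.60 and LSM10, a component of the small nuclear particle of histone mRNA maturation, at 0.83 (0.51 to 1.19) on 76, 1407, 466 and 33 counts. Nucleolar ribosome biogenesis factors had -0.05 with 4 of 23 higher, among them NOP10 (1.71) and DKC1, both of the snoRNP that makes pseudouridine, and NOP53. Aminoacyl-tRNA synthetases had 0.18 with QARS higher of 14 (7.14%), autophagy conjugation genes 0.04 with ATG4D higher of 12 (8.33%), and 14-3-3 proteins -0.37 with no call in 6. Higher calls were 17.4% of the nucleolar list and 5.56% of the splicing list. Lower calls were 15.8% of the Sm and LSm list, 4.35% of the nucleolar list and 2.78% of the splicing list.

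DNA replication genes had a median of -0.08, which turned to 0.85 with 100 or more counts in the pair and to 0.53 with the monosome library thinned, and 2 of 18 were lower, GMNN and PCNA, the sliding clamp. Mitotic cyclins, kinases and subunits of the anaphase-promoting complex had -0.46 with the E2 enzymes UBE2S and UBE2C lower and CDC26 higher, at 1.58 (0.87 to 2.51) on 14, 448, 152 and 29 counts, out of 22. Histone variants and high mobility group proteins had -0.11 with 3 of 17 lower, H2AFY, H1FX (-1.60) and H3F3A. Immediate-early and ID mRNAs had -0.38 with ID1 and ID2, inhibitors of bHLH factors, lower of 14. The translocon and signal peptidase list had -0.11 with 3 of 18 lower, among them SSR4 (-2.31) and BTF3 (-2.19). BTF3 was counted in this list, though it belongs to the nascent polypeptide-associated complex and not to the translocon. Cholesterol and fatty acid synthesis had -0.48 with IDI1 lower of 14. Zinc finger transcription factors, 38 compared of 509, had 0.21, or -0.20 with 5 genes lacking a free count at their bound, and -2.14 for summed counts, with 2 lower, ZNF525 and ZNF90. Exons of both hold a copy of a ribosomal protein mRNA (RPL39 and RPS16), so the source of their reads is uncertain. Lower calls were 17.6% of the histone list, 16.7% of the translocon list and 14.3% of the immediate-early list. They were 11.1% of the DNA replication list, 9.09% of the mitotic, 7.14% of the cholesterol and 5.26% of the zinc finger list. Among all compared genes 11.2% were lower. The higher call of CDC26 was 4.55% of the mitotic list, beside 7.52% of all compared genes.

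**Figure D4:**
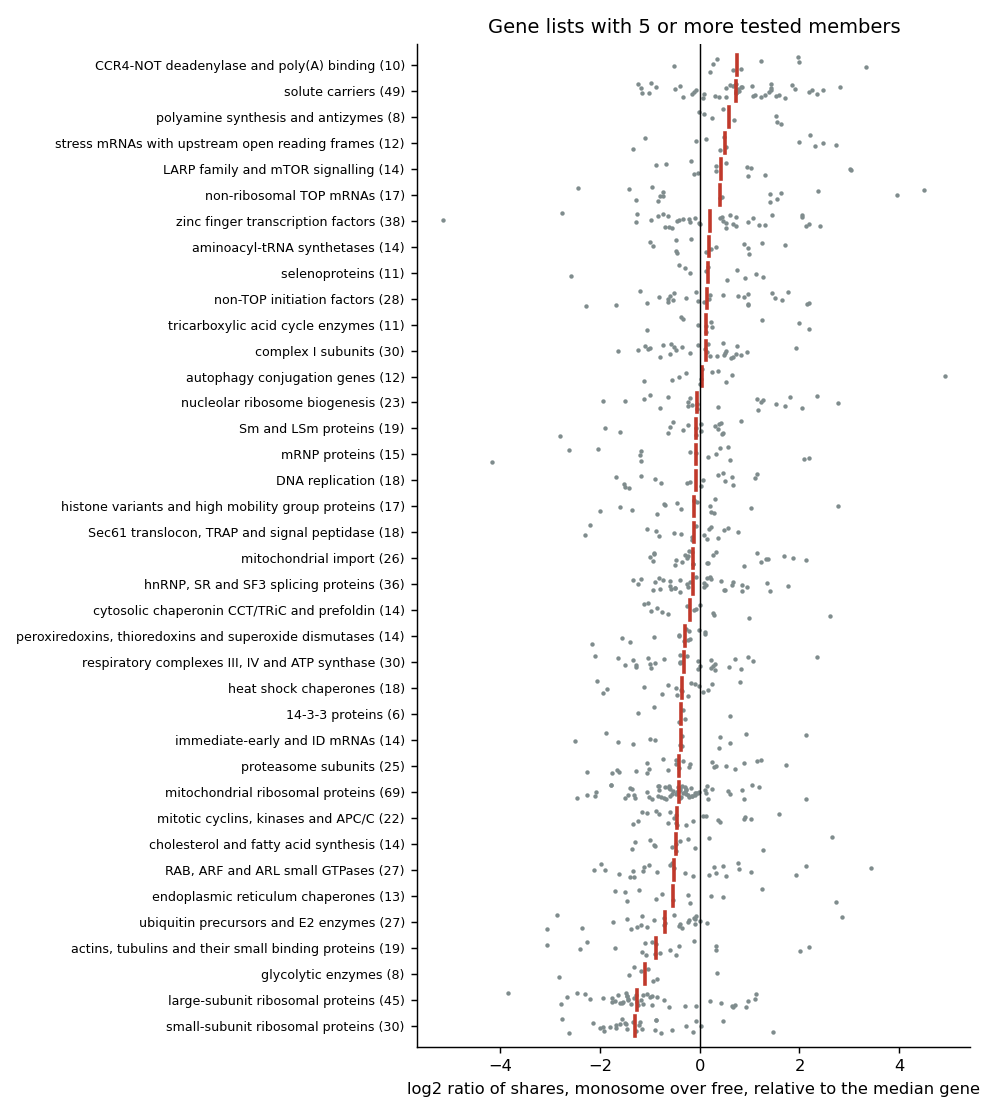
Each row is a gene list with 5 or more compared genes, with its number of compared genes in brackets; grey points are its genes' log2 ratios of shares, monosome over free, relative to the median gene, and the red bar is their median. Of the lists drawn, ribosomal proteins and glycolysis lie lowest, at -1.30, -1.24 and -1.10, and solute carriers and poly(A) genes highest, at 0.73 and 0.74.

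The length of the coding sequence, which limits how many ribosomes an mRNA can hold, went weakly with the comparison. Across 3506 genes with a length from GENCODE release 29, Spearman's rho was 0.193. Genes are not independent replicates, all points come from the same pair of libraries, and rho was 0.026 with no minimum on the pair. Genes called higher had a median coding length of 1050 nt, those called lower of 597 nt and all of 903 nt. Bins by length gave medians of -0.24 from 300 to 450 nt (398 genes), -0.26 from 450 to 600 nt (422 genes), 0.33 from 1200 to 1800 nt (691 genes) and 0.47 from 1800 to 3000 nt (356 genes). The higher values of the last 2 bins were lost with genes lacking a free count at the floor (0.046 and 0.029) and with no minimum on the pair (0.063 and 0). They were kept among genes with 100 or more counts in the pair (0.66 in 108 genes and 0.72 in 44). Thinning the monosome library also kept them (0.55 and 0.72). Longer genes also had fewer counts, with a median of 2 free counts in the last of these bins and 9 from 450 to 600 nt.

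The shortest reading frames showed no single direction. Up to 200 nt, 41 genes had a median of 0.06, with 6 higher (14.6%) and 11 lower (26.8%), beside 7.52% and 11.2% of all compared genes. Of those 41, 35 had 100 or more counts, with 17.1% higher and 28.6% lower, beside 15.5% and 18.1% of all genes at that depth. MTRNR2L8 and MTRNR2L12, with 72 nt, lay at -6.54 and -4.59 and are described below. RPL41, whose reading frame of 75 nt without the stop codon is the shortest of any ribosomal protein, is printed here in full because it is too short for many ribosomes to fit on it; the capitals are its start codon.
RPL41: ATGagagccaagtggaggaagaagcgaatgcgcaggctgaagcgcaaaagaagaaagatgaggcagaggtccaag
RPL41 (chr12:56116586-56117943, plus strand) had its highest share in the monosome library. OST4, a subunit of oligosaccharyltransferase with a frame of 111 nt, had 38, 1025, 964 and 125 counts and lay at 1.37 (0.92 to 1.89). TMSB10, a thymosin that binds actin monomers, with 132 nt, lay at 0.32, ATP5F1E with 153 nt at 0.70 and TOMM7 with 165 nt at -0.22. STMP1, with 141 nt, lay at -0.69, RPL39 with 153 nt at -1.05 and its paralogue RPL39L with 153 nt at -2.19. RPL41 and RPL39 thus lay on opposite sides although both are very short ribosomal proteins, and among the 75 ribosomal protein genes rho with coding length was 0.165.

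**Figure D5:**
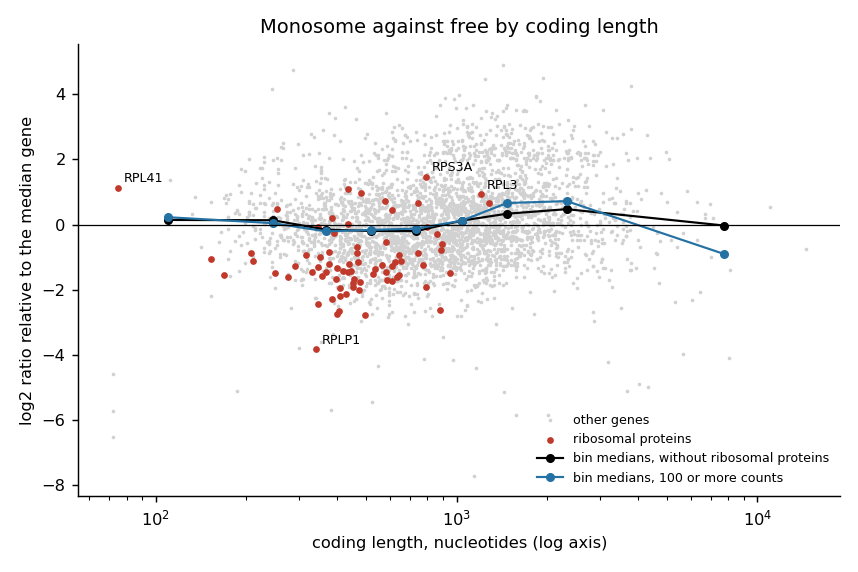
Each point is 1 gene, with coding length in nucleotides on the log axis and the log2 ratio of shares, monosome over free, relative to the median gene on the vertical axis; ribosomal proteins are red, the black line joins bin medians without ribosomal proteins and the blue line those of genes with 100 or more counts. The black line rises from -0.20 in the bin from 450 to 600 nt to 0.47 in that from 1800 to 3000 nt, and the last blue point rests on 9 genes.

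Several of the lowest values belong to genes whose exons hold all or part of a processed pseudogene, a copy of another mRNA inserted in the genome. Such a copy on the same strand, over at least 50 exon bases, was found in 50 of the 3535 genes (1.41%), of which 22 were called lower and 1 higher. Such a copy stood in 5.57% of the genes called lower and in 0.38% of those called higher. In 21 genes that are not TOP genes themselves the copy came from a ribosomal protein or other TOP mRNA. Of these 21, 17 were called lower and none higher, where 11.2% of all compared genes were lower and 7.52% higher. The median of the 21 was -4.14, against -1.13 for the genes the copies came from, and 15 of the 18 whose source was compared lay below that source. They made up 12 of the 20 lowest non-ribosomal genes, and held 6.31% of the free counts and 3.58% of the monosome counts. Whether their reads belong to the copies, to the source mRNA or to the host gene was not tested, and no source used here says how reads with several matches were counted.

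TTC19, which codes for a protein that acts on respiratory complex III, was the lowest gene of all, with 2054 free, 100 monosome, 54 light polysome and 107 heavy polysome counts, at -7.72 (-8.03 to -7.44). Its exons (gene at chr17:15999380-16045015, plus strand) hold RPLP1P11, whose 341 bases match RPLP1 at 91.3% identity. NBEAL1 (chr2:203014879-203226378, plus strand), with 8899, 5366, 6568 and 2452 counts, lay at -4.10 (-4.15 to -4.05) and holds RPL12P16, which matches RPL12 at 99.2%. VPS53 at -5.86 (RPS4X, 89.0%), ANKRD42 at -5.85 (RPL32, 89.5%), NHSL2 at -5.12 (TPT1, 90.5%) and RSF1 at -4.99 (RPS20, 92.5%) are also such hosts. The identities are those of each copy aligned to its source, not of the overlapping exon bases alone. Exons of VPS53 overlap only 119 of the 754 bases of its copy, and those of RSF1 323 of 358. Of the 9 genes over 3000 nt with 100 or more counts, 4 are such hosts. TIPIN lay at -3.46 while its source RPL9 lay at 0.72, on the other side of the median gene. COMMD1, with 4245, 18454, 8343 and 2826 counts, lay at -1.25 and holds RPSAP26, a copy of RPSA (98.2%), which had 3957, 23848, 10958 and 3581 counts and lay at -0.78. CHCHD3, with 923 free and 8651 monosome counts, lay near the median gene at -0.14. Its exons overlap only 172 of the 1314 bases of a copy of EEF1G (99.2%). EEF1G itself had no count in either library and was not compared, so the source of the CHCHD3 reads is uncertain.

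MTRNR2L8 and MTRNR2L12, which resemble the large ribosomal RNA of mitochondria, had 381 and 341 free counts, 42 and 146 monosome counts and at most 4 in either polysome library. They lay at -6.54 (-7.05 to -6.09) and -4.59 (-4.88 to -4.31). Of the other lowest genes, ELOB, the elongin B subunit, had 905, 756, 972 and 734 counts and lay at -3.63 (-3.77 to -3.49), with its highest share in the free library.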

How the data were processed

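The authors deposited raw counts for each gene, 1 column for each of 4 libraries, with 0 columns unused. The tools named in the submitters' processing notes are minimap2 2.15 and, from Subread 1.6.2, featureCounts, on hg38. No source used here gives the annotation or says how strand and reads with several matches were handled, so genes with near-identical copies or overlaps are uncertain. Per the labels' protocols, capped RNA was bound to a mutant of eIF4E and read directly, without amplification.

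From the counts, shares, ratios and Clopper-Pearson intervals were computed as stated in the text. With 1 library per pool no replicate test could be fitted; edgeR 4.0.16 and DESeq2 1.42.0 gave scaling factors only. The scripts were tested on simulated data. The members and the 39 gene lists were chosen with earlier results of these data known. Named genes are the 15 highest and 15 lowest by the near interval bound with 100 or more counts in the pair, each list's 3 most counted members and extremes, the 10 most counted genes of each library, the 10 shortest coding sequences, and a few preset genes; others, such as RPLP2, RPL12, PCBP1, TIPIN and the remaining genes listed with calls, were chosen after their values were seen. Gene models came from GENCODE release 29, which matched 19670 symbols, and starts from RefSeq on GRCh38.p14, which matched 2897 of the compared genes. Copies in exons were assigned to source genes with blastn. Python 3.11.15, pandas 2.3.3, scipy 1.17.1, matplotlib 3.10.9 and R 4.3.3 were used. The alternatives were other pseudocounts, minimum counts, scalings, thinning, a floor of 3 counts and summed counts. A few values of single genes are not reported here.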

Additional observations from a re-analysis of the deposited data

How the results depend on the processing

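Depth of the free library limits the comparison: 1 free count is 2.81 CPM there, and 1108 of the compared genes had fewer than 3. No paired analysis was possible because each pool has 1 library. Of the 266 genes higher and 395 lower, TMM scaling and DESeq2 size factors, which put the median gene 0.0004 above and -0.03 from the reference, changed neither count by over 1.5 times. Column totals, which put the median gene at 1.47, gave 1913 higher and 46 lower, and totals without TOP genes (1.09) gave 1414 and 89. With 100 or more counts in the pair and the reference moved to the median of those genes, 189 were lower, against 200 with the reference kept. Summed counts in place of medians moved all ribosomal proteins to -1.72, the small subunit to -1.78, the large subunit to -1.66, non-ribosomal TOP mRNAs to -0.99, mRNP proteins to -3.75, the translocon list to -0.98, splicing proteins to 0.30, zinc finger factors to -2.14, solute carriers to 0.30 and ubiquitin genes to -1.38. With no minimum on the pair, iron-responsive mRNAs lay at -0.85, mitochondrial ribosomal proteins at -0.23 and solute carriers at 0.45, CHCHD3 turned to 0.058, rho fell to 0.026, and the length bins lay at 0.26 (200 to 300 nt), -0.041 (300 to 450), -0.10 (450 to 600), -0.11 (600 to 900), 0.063 (1200 to 1800) and 0 (1800 to 3000). With 100 or more counts and that reference, aminoacyl-tRNA synthetases lay at 1.38, DNA replication at 0.85, solute carriers at 0.43, and the bins at -0.085 (600 to 900 nt), 0.70 (1200 to 1800), 0.76 (1800 to 3000) and -0.86 (over 3000). With genes lacking a free count at the floor, bins lay at -0.062 (900 to 1200 nt), 0.046 (1200 to 1800) and 0.029 (1800 to 3000). A pseudocount of 1 gave 0.25 and 0.26 for the last 2 of these bins, no pseudocount 0.30 for 1800 to 3000 nt, and thinning the monosome library 0.55 and 0.72, with DNA replication at 0.53. The cause of these moves was not tested. Of 1118 values of the 190 named genes under these settings, 1100 kept their sign.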
